A study of Homo sapiens with 4 samples.

Results

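The genes described here had more RNA in each RUNX1::ERG library than in either empty vector library of K562 cells and were also clearly higher in RUNX1::ERG replicate 1 than in replicate 2, as the fusion transcript itself was. They were chosen on CPM, the count of a gene divided by the total of its library and scaled to a common library size. A gene was a member when its higher empty vector CPM was above 0.2, its lower RUNX1::ERG CPM was at least 1.5 times that value and at least 1, and its CPM in RUNX1::ERG replicate 1 was at least 1.8 times that in replicate 2. ERG and RUNX1, the genes joined in the fusion, were left out. This gave 23 of the 25702 genes counted, of which 21 were protein-coding, 1 was a long non-coding RNA (MIR9-1HG) and 1 was a transcribed pseudogene (SSPOP). The rule used all 4 libraries, so the levels, ratios and fold changes of the members are given as a description, with no test.

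K562 is an established BCR::ABL1-positive cell line from a chronic myeloid leukemia in blast crisis. All cells were transfected by nucleofection with the plasmid LeGO-iG2, which also makes GFP, and carried either no insert (empty vector, 2 libraries) or RUNX1::ERG (2 libraries). Poly(A)-enriched RNA was sequenced and reads were counted per gene. The control cells thus carried the same plasmid and passed through the same transfection. Such cells carry different amounts of plasmid, the sources used here do not say that GFP-positive cells were selected before sequencing, and reads from the plasmid and from the cell's own RUNX1 and ERG genes were counted together. In RNA from many cells, more expressing cells and more RNA per cell cannot be told apart.

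RUNX1 is a transcription factor that binds DNA through its Runt domain and directs the formation of blood stem cells and platelets. ERG belongs to the ETS family, whose members bind sites with the core letters GGAA, and is active in endothelial cells, blood stem cells and megakaryocytes. K562 cells have erythroid features and can be driven towards the megakaryocytic lineage.

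The promoters of members that had an entry in the RefSeq promoter table and at least 5 CPM in both RUNX1::ERG libraries are shown because these members have the largest counts behind them. Each line gives the 250 bases before the annotated start, from the table of GRCh38.p14. GRCh37 positions came from an exact match of each sequence to that build. They were chr15:40633141-40633390 on the minus strand for CCDC9B, chr1:45273945-45274194 on the plus strand for BTBD19 and chr17:27949931-27950180 on the minus strand for CORO6, for the first of its 2 starts. Capitals mark GGAA, or TTCC where the core lies on the other strand.
CCDC9B: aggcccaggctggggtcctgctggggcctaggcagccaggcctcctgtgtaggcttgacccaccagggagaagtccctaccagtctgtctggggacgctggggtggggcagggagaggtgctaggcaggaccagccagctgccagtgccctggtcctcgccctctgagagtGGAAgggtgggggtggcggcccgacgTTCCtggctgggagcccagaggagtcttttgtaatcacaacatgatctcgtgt
BTBD19: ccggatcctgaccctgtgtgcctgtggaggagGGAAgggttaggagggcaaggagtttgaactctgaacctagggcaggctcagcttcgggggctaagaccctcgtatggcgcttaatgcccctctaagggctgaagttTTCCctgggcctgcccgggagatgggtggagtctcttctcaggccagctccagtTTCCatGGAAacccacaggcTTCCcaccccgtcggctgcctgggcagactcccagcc
CORO6: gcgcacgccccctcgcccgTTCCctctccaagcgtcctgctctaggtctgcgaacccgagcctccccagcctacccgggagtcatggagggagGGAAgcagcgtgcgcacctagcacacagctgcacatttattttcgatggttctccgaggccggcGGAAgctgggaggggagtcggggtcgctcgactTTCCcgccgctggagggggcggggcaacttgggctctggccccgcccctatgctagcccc

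The CCDC9B sequence held 2 GGAA cores, that of BTBD19 held 5 and that of the first CORO6 start held 4. The 250 bases before the second CORO6 start, which are not printed, held 0. Promoters were found for 9 of the 23 members. In the 300-base windows, which also hold the first 50 bases of the transcript, GGAA on either strand was present in all 9, as it was in 96.6% of promoters of genes expressed at 1 CPM or more in both RUNX1::ERG libraries and in 95.7% of those of the other raised genes (437 genes), which met the limits on fold and level but not on the ratio. The longer letters CGGAAG, which overlap the core, were present in 2 of 9 (BIRC7 and CORO6) against 40.0% of expressed and 18.1% of other raised genes, and AGGAAG in 3 of 9 (CD14, CDK18 and ZG16B) against 39.4% and 46.5%. The RUNX letters TGTGGT were in 0 of 9 against 12.7% and 16.5%, and TGCGGT in 2 of 9 (CORO6 and TKTL1) against 12.9% and 9.61%. The GC box GGGCGG was in 3 of 9 (CDK18, CORO6 and MIR9-1HG) against 77.1% and 70.5%. The members' promoters had a median of 11 CpG pairs per window, those of expressed genes had 25 and those of other raised genes had 17. These matches describe letters in a window, and with 9 promoters the shares are imprecise: the exact (Clopper-Pearson) 95% interval for 2 of 9 ran from 2.81% to 60.01%.

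The fusion parts served as the check of the labels. ERG (NCBI gene 2078) had 4 counts in each empty vector library. It had 80443 counts in RUNX1::ERG replicate 1 and 27218 in replicate 2, which is 977 and 380 CPM, a ratio of 2.57. RUNX1 (NCBI gene 861) had 79.3 and 47.2 CPM in empty vector replicates 1 and 2, and 804 and 402 CPM in RUNX1::ERG replicates 1 and 2, a ratio of 2.00. The housekeeping gene GAPDH was at 2728 and 2750 CPM in the RUNX1::ERG replicates, a ratio of 0.992. Replicate 1 thus held more fusion transcript for the same GAPDH, and this rests on 1 library on each side. Library totals ran from 59695387 to 82352144 counts, and a count of 0 allowed up to 0.0364 to 0.0503 CPM (3 counts, counting error only). Counts were not halved for this limit, as they are for the replicate ratios below, so it is a low estimate. Of 12 markers of the K562 line, 12 were detected.

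**Figure D1:**
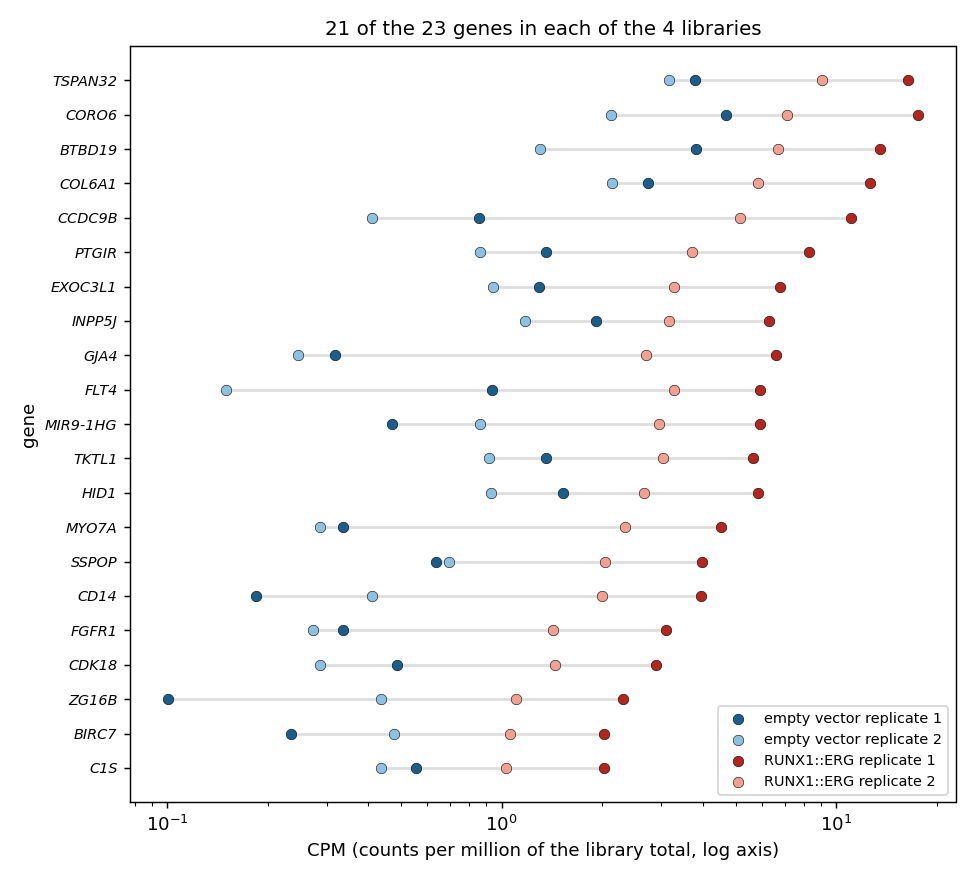
CPM of 21 of the 23 genes in each of the 4 libraries, on a log axis, ordered by the mean of the RUNX1::ERG libraries. Each point is 1 library. In every gene shown both RUNX1::ERG points lie to the right of both empty vector points and replicate 1 lies to the right of replicate 2, which the rule requires.

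Receptors and signalling proteins made up 6 members. The groups used here were assembled from known roles after the members were known. FLT4 (NCBI gene 2324, chr5:180028506-180076624) encodes VEGFR3, the receptor through which VEGF-C acts on lymphatic endothelium. It had 0.938 and 0.1503 CPM in empty vector replicates 1 and 2, and 5.91 and 3.27 CPM in RUNX1::ERG replicates 1 and 2. Its 2 empty vector libraries differed more than those of any other member, with replicate 1 at 6.24 times replicate 2. FGFR1, a receptor tyrosine kinase for fibroblast growth factors, had 0.335 and 0.273 CPM with empty vector and 3.10 and 1.42 CPM with RUNX1::ERG. PTGIR, the receptor for prostacyclin, which restrains platelet activation, had 1.36 and 0.861 CPM with empty vector and 8.29 and 3.72 CPM with RUNX1::ERG. In both of these the lower RUNX1::ERG library was well above the higher empty vector library. CD14, the co-receptor for lipopolysaccharide on monocytes, went from 0.184 and 0.410 CPM to 3.95 and 2.00 CPM. It is 1 of 5 members in which empty vector replicate 2 was the higher control. Inside the cell, INPP5J, a phosphatase that removes the 5-phosphate of inositol lipids, had 1.91 and 1.17 CPM against 6.29 and 3.17 CPM. CDK18, a cyclin-dependent kinase, had 0.486 and 0.287 CPM against 2.89 and 1.44 CPM. In none of the 6 did the 2 groups of libraries overlap, as the rule requires.

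Proteins of cell contacts, matrix and secretion included the member with the largest fitted change. GJA4 (NCBI gene 2701, chr1:35258600-35261348) encodes connexin 37, a gap junction protein of arterial endothelium. It had 0.318 and 0.246 CPM with empty vector, and 6.58 and 2.70 CPM in RUNX1::ERG replicates 1 and 2, so that RUNX1::ERG replicate 2 alone was far above both controls. Its log2 fold change was 3.996 (SE 0.49). TSPAN32 (NCBI gene 10077, chr11:2323227-2339434), a tetraspanin of blood cells, had 3.79 and 3.17 CPM with empty vector and 16.4 and 9.04 CPM with RUNX1::ERG. Per kilobase of canonical transcript it had the highest level of the members in both RUNX1::ERG libraries, 11.9 and 6.55 CPM per kb. COL6A1, the alpha-1 chain of type VI collagen, had 2.73 and 2.13 CPM against 12.6 and 5.83 CPM. C1S, the serine protease of the first complement component, had 0.553 and 0.437 CPM against 2.03 and 1.03 CPM, and ZG16B, a secreted lectin-like protein, had 0.101 and 0.437 CPM against 2.31 and 1.10 CPM. These latter genes sat just above the level limit in RUNX1::ERG replicate 2, and ZG16B had 6 counts in empty vector replicate 1.

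Members of the cytoskeleton and of membrane traffic followed the same order of libraries. CORO6, a coronin that binds actin, had 4.67 and 2.12 CPM with empty vector and 17.5 and 7.12 CPM with RUNX1::ERG, the highest replicate ratio of the members at 2.46. MYO7A, an unconventional myosin of the hair cells of the inner ear, had 0.335 and 0.287 CPM against 4.52 and 2.33 CPM. EXOC3L1, related to the exocyst subunit EXOC3, had 1.29 and 0.943 CPM against 6.79 and 3.28 CPM. HID1, a Golgi-associated protein of secretory granule formation, had 1.52 and 0.929 CPM against 5.82 and 2.67 CPM. In all 4 of these, empty vector replicate 1 was the higher control.

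Other protein-coding members were CCDC9B, BTBD19, TKTL1 and BIRC7. CCDC9B (NCBI gene 388115, chr15:40623653-40633140), a coiled-coil protein, had 0.854 and 0.410 CPM with empty vector and 11.1 and 5.14 CPM with RUNX1::ERG, and its log2 fold change of 3.65 (SE 0.46) was second to that of GJA4. BTBD19, named for its BTB domain, had 3.82 and 1.30 CPM against 13.5 and 6.68 CPM, so its lower RUNX1::ERG library was only 1.75 times its higher control. TKTL1, a relative of the pentose phosphate enzyme transketolase, had 1.36 and 0.915 CPM against 5.62 and 3.03 CPM. BIRC7, an inhibitor of apoptosis, had 0.235 and 0.478 CPM against 2.03 and 1.06 CPM. Of the non-coding members, MIR9-1HG, the host transcript of a miR-9 hairpin, had 0.469 and 0.861 CPM with empty vector and 5.93 and 2.95 CPM with RUNX1::ERG. SSPOP, the pseudogene of SCO-spondin, had 0.637 and 0.697 CPM against 3.96 and 2.04 CPM. It was also the lowest of the members per length, with 0.251 CPM per kb in RUNX1::ERG replicate 1.

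All 23 members passed the filter on low counts of edgeR's quasi-likelihood test, and 21 of them were called higher at an adjusted p below 0.05, the exceptions being BIRC7 and C1S. Over all 15394 genes tested, 3.64% were called higher and 4.79% in either direction. Since the rule used this contrast, nothing is read from the difference between these shares. The members' log2 fold changes had a median of 2.14 and ran from 1.58 (INPP5J) to 3.996 (GJA4), beside a median of -0.00 over all genes tested. Standard errors ran from 0.30 (TSPAN32) to 0.65 (ZG16B), so neighbours in the order of fold changes do not differ beyond their errors. Without RUNX1::ERG replicate 1, in which the rule requires the members to be high, 5 members were called, CCDC9B, CD14, GJA4 and MYO7A among them, the median fell to 1.58, and 1.45% of all genes were called higher.

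**Figure D2:**
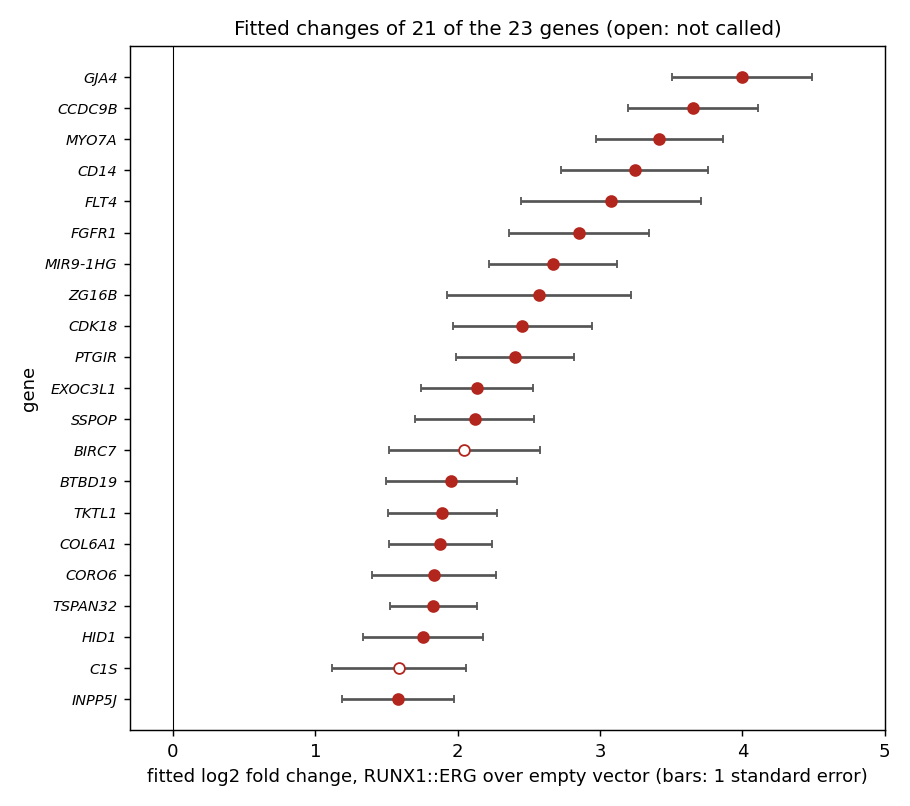
Fitted log2 fold change of 21 of the 23 members, RUNX1::ERG over empty vector, with bars of 1 standard error (2 libraries in each group). Filled points were called at an adjusted p below 0.05 by edgeR and open points (BIRC7 and C1S) were not. The values run from 1.58 to 3.996 and the bars of neighbouring genes overlap.

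The replicate ratio that defines the members was compared with that of the fusion. The members' ratio of RUNX1::ERG replicate 1 to replicate 2 had a median of 2.01 and ran from 1.801 to 2.46 (CORO6), so none reached the 2.57 of ERG, and RUNX1 at 2.00 lay near the middle. When the mean of the empty vector libraries was first taken off, the ratio of the remaining increments ran from 1.97 to 3.79 with a median of 2.44. It was above the ratio of ERG in 9 members and at or below it in 14, and was 2.19 for RUNX1. Taking the same value off both libraries raises any ratio above 1, so nothing is read from the rise. Counting error alone was not small at these levels, with 74 to 647 counts in RUNX1::ERG replicate 2. With counts halved, because between 66.7% and 68.9% of counts from 1 to 10 were even in each library, the exact 95% interval of the ratio had its lower bound at 1.8 or more in 5 members (CCDC9B, COL6A1, CORO6, GJA4 and PTGIR) and below 1.8 in 18. The members were chosen on this ratio, so these intervals describe the precision of the counts and are no test of it. Just inside the limit of 1.8 were, among others, FLT4 at 1.81 and TSPAN32 at 1.82. Just outside were ALPK3 at 1.7996, CD164L2 at 1.79 and HSPB7 at 1.77. At the limit on fold, CORO6 at 1.52 was the nearest inside and SSC4D at 1.49 the nearest outside.

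Most genes that were raised did not share this ratio. The limits on fold and level were met by 604 of the 12193 genes at 1 CPM or more in both RUNX1::ERG libraries (4.95%). Among the 604, 23 (3.81%) had a ratio of 1.8 or more, 1 (TMEM45A, 0.507) had one at or below 1/1.8, and 580 lay between, with a median of 1.09. Strongly raised genes were among those between. ITGA2B, the platelet integrin alpha-IIb, had a ratio of 1.46 (235 and 161 CPM), its partner ITGB3 had 1.04 (101 and 97.1 CPM), and the kinase PAK6 had 1.39 (112 and 80.3 CPM). Members were also found at lower levels than the other raised genes, with a median lower RUNX1::ERG value of 2.95 CPM against 7.98 CPM.

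**Figure D3:**
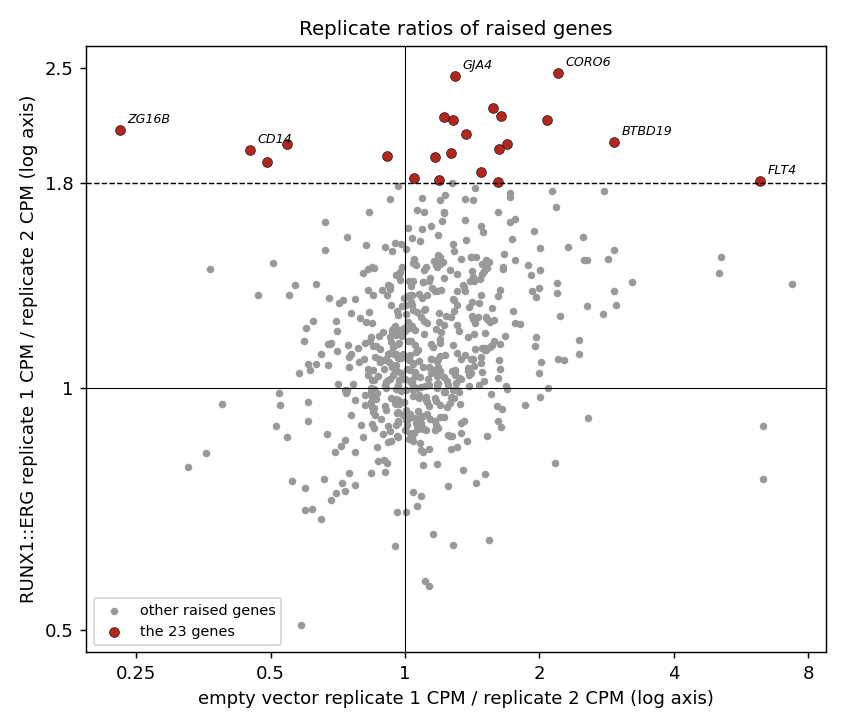
Ratio of replicate 1 to replicate 2 in the RUNX1::ERG libraries (vertical, log axis) against the same ratio in the empty vector libraries (horizontal, log axis) for the raised genes. The 23 members (red) lie at or above the dashed line at 1.8, and 18 of them lie to the right of 1, where empty vector replicate 1 is the higher control.

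Ratios of this size were not limited to raised genes. Of the 11589 expressed genes that were not raised, 242 (2.09%) had a ratio of 1.8 or more, and over all expressed genes 265 (2.17%) had. Among genes no higher than the highest member level of 9.04 CPM in the lower RUNX1::ERG library, the share was 6.97% of raised genes (23 of 330) and 6.505% of those not raised (177 of 2721). Empty vector replicate 1 was the higher control in 18 of the 23 members (78.3%), in 62.0% of the other raised genes, in 58.0% of all expressed genes and in 94.2% of the 242 genes not raised. The 5 members with the opposite order were BIRC7, CD14, MIR9-1HG, SSPOP and ZG16B. Same-numbered libraries were also compared, though nothing in the labels pairs them. In the members RUNX1::ERG was a median of 6.11 times empty vector in replicate 1 and 3.43 times in replicate 2. Replicate 1 gave the larger fold in 21 members, the exceptions being BTBD19 and FLT4. It did so in 295 of the 581 other raised genes, 5502 of the 12193 expressed genes and 189 of the 242 genes not raised. The limit on the ratio favours this order in the members, so nothing is read from it.

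The rule did not use sequence, and the members were rich in G and C. The GC content of their canonical transcripts had a median of 60.5% and ran from 48.4% (C1S) to 67.1% (SSPOP). It was 52.5% for the other raised genes, 48.5% for all expressed genes and 62.9% for the genes not raised with a ratio of 1.8 or more. When expressed genes were divided into 5 equal classes of GC content, 16 members fell in the highest class and 5 (BTBD19, CCDC9B, FGFR1, MIR9-1HG and ZG16B) in the next. The remaining members, C1S and TKTL1, fell in the middle class, and 0 fell in the lowest and second-lowest classes. The median ratio of RUNX1::ERG replicate 1 to replicate 2 over all expressed genes went from 0.889 in the lowest class through 0.917, 0.972 and 1.09 to 1.26 in the highest, while the same ratio of the empty vector libraries went from 1.02 to 1.11. Across 11618 genes, which share the 4 libraries and are not independent, Spearman's rho between GC content and the RUNX1::ERG ratio was 0.634, and for the empty vector ratio it was 0.113 over 11604 genes.

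**Figure D4:**
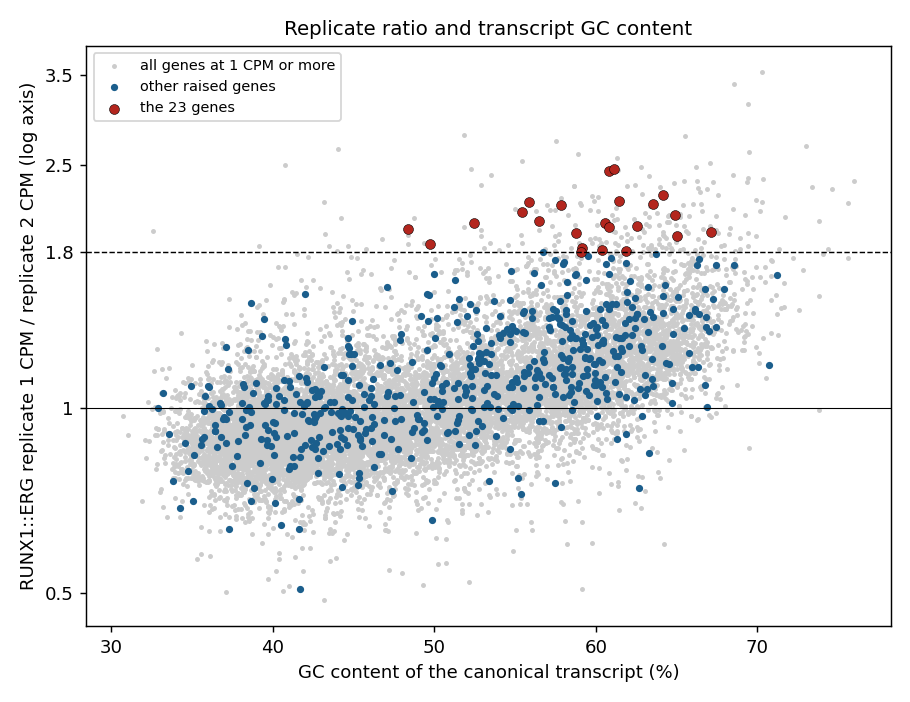
Ratio of RUNX1::ERG replicate 1 to replicate 2 (vertical, log axis) against the GC content of the canonical transcript in percent. Grey points are all genes at 1 CPM or more in both RUNX1::ERG libraries, blue points the other raised genes and red points the 23 members. The cloud of all genes climbs from a median of 0.889 in the lowest GC class to 1.26 in the highest, and 21 members lie in the 2 highest classes.

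Within the highest GC class, and up to the highest member level, a ratio of 1.8 or more was found in 16 of 95 raised genes (16.8%) and in 100 of 564 genes that were not raised (17.7%). Without the limit on level, the shares of raised and not raised genes in that class were 10.2% and 6.83%. They were 3.14% and 1.57% in the next class (5 of 159 raised genes) and 2.15% and 0.359% in the middle class (2 of 93). In the second-lowest and lowest classes 0 raised genes had such a ratio, against 0.360% and 0.0891% of those not raised. These differences were not tested. When each gene's ratio was divided by the median ratio of genes of like GC content, an alternative chosen after seeing the data, 9 members kept a ratio of 1.8 or more (BTBD19, C1S, CCDC9B, CORO6, FGFR1, GJA4, MIR9-1HG, TKTL1 and ZG16B), and 0 raised genes had one at or below 1/1.8. The share of genes not raised that kept such a ratio is not given here, so nothing is read from these 9. The canonical transcript of ERG had a GC content of 45.6% and that of RUNX1 had 46.2%. The plasmid carried coding sequence only, so these values are not those of the fusion transcript, whose GC content is not given here. GC content, level and the amount of fusion all differ between the same 2 RUNX1::ERG libraries or move with their ratio, so a response to the amount of fusion and a difference between the libraries cannot be told apart for these genes.

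Some members lay beside other genes that were called higher. Within 100 kb on GRCh37, 13 of the 23 members (56.5%) had a neighbour called higher, compared with 25.7% of the other raised genes and 12.9% of all tested genes with a position. The members lay in denser regions, with a median of 6 tested genes in the window against 3 for the other raised genes, and this difference was not tested. CCDC9B lies 23517 bp from PLCB2, a phospholipase C of blood cells with 5.19 and 4.22 CPM against 24.8 and 14.3 CPM, and 53965 bp from PAK6. PTGIR lies 8864 bp from GNG8, a G protein gamma subunit with a log2 fold change of 2.95 (SE 0.41). TSPAN32 shares exonic sequence with C11orf21 on the opposite strand, which had 5.39 and 3.63 CPM against 17.1 and 10.7 CPM. The strand setting of the counting is not given in the sources used here, so the reads of these overlapping genes may be mixed. In all, 8 members overlapped an exon of another annotated gene. Chromosome 1 held 6 members (26.1%), compared with 10.5% of the tested genes with a position. No test was run on this share, and with 6 genes it is imprecise.

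Some members were on pathway lists, and the share of all expressed genes on these lists is not given here. The counts below leave the member out and give the other genes of each list. FLT4 was the single member among endothelial genes with known ETS control, of which 14 of 41 others tested were higher and 1 lower (median log2 fold change 0.25), although ERG itself is on that list. PTGIR was the one among G-protein coupled receptors and their regulators (5 of 34 higher, 1 lower, median 0.22) and COL6A1 among adhesion and matrix genes (6 of 61 higher, 2 lower, median 0.24). TSPAN32 was the one among annexins, S100 proteins and tetraspanins (7 of 47 higher, 3 lower, median 0.42), and FGFR1 among cytokines, chemokines and their receptors (8 of 81 higher, 2 lower, median 0.20). The background of 3.64% called higher applies to each. The other pathway lists, among them platelet granule cargo with 16 of 29 higher, held 0 members.

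Markers of other cell types were examined because CD14, FLT4 and GJA4 are best known from monocytes and endothelium. Of 19 monocyte and neutrophil markers, 11 were tested and 4 were higher, CD14 among them (3 of the 10 others). Their summed level was 67.7 and 69.9 CPM with empty vector and 133 and 113 CPM with RUNX1::ERG, and MS4A7, C1QB and LILRB2 were at 0 in all libraries. Much of the sum was CD68, a lysosomal protein, at 55.1 and 58.0 CPM against 105 and 89.5 CPM. Of the 12 endothelial markers, 9 were tested, 3 were higher (PECAM1, VWF and ROBO4) and 6 were not called. PECAM1 had 3.22 and 2.87 CPM with empty vector against 23.8 and 24.9 CPM with RUNX1::ERG. VWF had 0.0168 and 0.109 CPM against 3.78 and 3.87 CPM. VWF is also on the list of 12 platelet and mature megakaryocyte markers. Of that list 6 were tested, 4 were higher (PF4, PPBP, TUBB1 and VWF) and 2 were not called. The 12 endothelial markers summed to 138 and 157 CPM with empty vector and to 358 and 224 CPM with RUNX1::ERG. Most of each sum was EGFL7, which was not called, at 132, 152, 325 and 193 CPM. EMCN was at 0 throughout. The part of other cells in these values was not tested.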

How the data were processed

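Gene-level read counts, not normalized, were deposited by the authors in 1 file for each of 4 libraries, over 25702 NCBI gene numbers. The submitters' processing notes name hg19, HISAT2 2.2.1 and featureCounts 2.0.1; the annotation and strand setting are not given in the sources used here. Symbols came from a RefSeq table of GRCh38.p14 (92.2% of genes matched), and positions, exons, GC content and canonical transcripts from GENCODE v44 on GRCh37.

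CPM was computed on library totals for the choice of members. Fold changes came from edgeR 4.0.16 in R 4.3.3 (TMM scaling, its filter on low counts, quasi-likelihood test, Benjamini-Hochberg adjustment, no replicate block), fitted on all genes and tested on simulated data. Standard errors were derived from that test, as the size of the log2 fold change divided by the square root of its F statistic. With 2 libraries against 2, an exact permutation test cannot give a p below 0.333. The labels call the samples replicates, and p-values measure the spread between these samples only.

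The members, lists and tests were chosen with earlier results of these data known. Of the 23 members, 21 are named and 2 are not reported singly here, though counts and medians over the members include them. Other genes named are the fusion parts, GAPDH, those nearest the limits, called neighbours and list members, and ITGA2B, ITGB3 and PAK6 were chosen after their values were seen. Alternatives were other scalings (RLE, library totals), no filter, DESeq2 1.42.0, a replicate block, each library left out and other limits. Corrections of the ratio for GC content and for the empty vector ratio were added after seeing the data.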

Additional observations from a re-analysis of the deposited data

How the results depend on the processing

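The number of genes called was 737 (560 higher), 1500 with no filter on low counts and 1194 with DESeq2, and ran from 286 to 1336 with 1 library left out: 286 without RUNX1::ERG replicate 1, and 1227 or 1336 without the first or second empty vector library. Leaving out 1 library, between 5 and 23 members were called higher, beside 1.45% to 5.77% of all genes tested. The members' median log2 fold change ran from 1.58 to 2.54. The lowest of these values came without RUNX1::ERG replicate 1. With library totals in place of TMM, 15 members were called, beside 3.35% of all genes tested called higher. The rule used this contrast, so nothing is read from these counts of members. Replicate numbers are shared between the groups, but nothing in the labels pairs them. Deviations of same-numbered libraries correlated across genes at 0.27. With a replicate block 1733 genes were called. Of these 1082 were higher (7.03% of the genes tested), the 23 members among them. The cause of these differences was not tested.

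Membership depended on the limits. A ratio of at least 1.5 gave 65 genes and one of 2.5 gave 0. A lower RUNX1::ERG level of at least 5 CPM gave 5 (BTBD19, CCDC9B, COL6A1, CORO6 and TSPAN32), with 347 raised genes between the ratio limits and 0 at or below 1/1.8, and at that level AGGAAG and the GATA, AP-1, CRE, CCAAT, TATA, E-box and TEAD letters were in 0% of 3 promoters. TMM scaling of CPM gave 19 (FLT4 and TSPAN32 were among those lost) and 2 raised genes at or below 1/1.8. The rule gave 58 genes without empty vector replicate 1 (22 shared, FLT4 lost) and 23 without replicate 2 (21 shared). No RUNX1::ERG library can be left out of a rule on their ratio. Division by the ratio of genes of like GC content gave 9 members, and division by the empty vector ratio gave 29 genes (6 shared), with 32 of the opposite ratio.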
